A study of Mus musculus with 51 samples.

Results

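The H19 and Igf2 locus is a stretch of mouse chromosome 7 that is imprinted by DNA methylation laid down in sperm. It was defined by position, as the stretch between 142.55 and 142.78 Mb of chromosome 7 on GRCm38. The members were all peaks of the 6 deposited tables of allelic read counts that overlap this interval and all 1 kb windows within it. There were 17 such peaks of 150793 in all, of which 12 carried enough reads to be tested, and 230 windows of 2462755.

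H19 is a long non-coding RNA that is known to be transcribed from the maternal chromosome, and Igf2 is a growth factor of the fetus and placenta that is known to be transcribed from the paternal one. Between them, just upstream of H19, lies the imprinting control region. The DNA-binding protein CTCF is known to bind it on the unmethylated maternal chromosome, where it keeps shared enhancers away from Igf2, while methylation inherited from sperm prevents that binding on the paternal chromosome. H3K4me3 marks active gene starts, H3K36me3 marks transcribed gene bodies and H3K27me3 is the mark of Polycomb repression.

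The 3 marks were profiled by ultra-low-input native ChIP-seq in the epiblast, the source of the embryo proper, and in the extra-embryonic ectoderm (ExE), a source of placenta. All embryos were F1 hybrids at embryonic day 6.5, named with the mother first. B6/CAST (C57BL6/Babr mother, CAST/EiJ father) and its reciprocal CAST/B6 were wild type. In matDKO/CAST the mothers were Dnmt3a fl/fl, Dnmt3b fl/fl, Zp3-cre females of mixed B6 and 129 background. The Zp3 promoter drives Cre in growing oocytes, so the egg brought no DNA methylation and a deleted copy of both genes, while the CAST father was wild type and sperm methylation was not targeted. Within matDKO/CAST alone, strain and parent cannot be told apart. Each of the 18 groups of cross, tissue and mark held 2 libraries, besides 15 inputs. A library came from pooled tissue of 4 epiblasts or 8 ExE by the protocol. The chromatin of a pool was split over the antibodies and the input, so libraries of different marks can share embryos. The p-values rest on the spread between such pools. In the main allelic fits the 2 alleles of a library were entered as separate samples, without pairing. In such bulk tissue a mark on fewer cells and a weaker mark in each cell cannot be told apart.

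The control region carries the sequences on which the imprint is known to turn. The CTCF core, spelled CCGCGNGG followed by NGGCAG, was searched on both strands of the GRCm38 sequence, and exact matches were found at 3 places within 10 kb upstream of the H19 start. All 3 lie on the minus strand, the strand of H19, at 2.17, 2.62 and 3.89 kb from its start. They are shown with their flanks because they place the control region in the data, with the core in capitals.
Control region site 1, chr7:142580296-142580335, minus strand: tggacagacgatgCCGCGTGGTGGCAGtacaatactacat
Control region site 2, chr7:142580751-142580790, minus strand: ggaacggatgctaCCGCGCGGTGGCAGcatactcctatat
Control region site 3, chr7:142582021-142582060, minus strand: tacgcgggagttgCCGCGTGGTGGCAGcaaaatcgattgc
Each core holds CpG dinucleotides, the target of methylation. These were the only exact matches in the locus, of 9 on the chromosome, and 0.0365% of 32851 RefSeq promoter sequences held such a match, the 4 of Igf2 not among them. A match describes the sequence and does not show binding, and an exact search misses sites that depart from this core.

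Igf2 has 4 starts in the RefSeq promoter table, counted here from the most upstream. The 250 bases upstream of start 1 hold a single CpG and those of start 2 hold 10. The same stretches of start 3 and start 4 hold 22 and 6, where the median over all promoters was 6. Sequence upstream of starts 1 and 2 is shown because the windows of these 2 starts differed most between the tissues, with CpG in capitals. For start 2 the 34 bases nearest the start, which the annotation holds as exon, are left off.
Igf2 start 1, chr7:142666817-142667066, minus strand: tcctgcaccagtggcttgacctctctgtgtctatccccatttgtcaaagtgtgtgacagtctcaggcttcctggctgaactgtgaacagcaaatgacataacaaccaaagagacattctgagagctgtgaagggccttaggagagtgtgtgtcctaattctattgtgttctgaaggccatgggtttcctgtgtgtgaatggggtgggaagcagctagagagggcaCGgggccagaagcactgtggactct
Igf2 start 2, chr7:142661306-142661521, minus strand: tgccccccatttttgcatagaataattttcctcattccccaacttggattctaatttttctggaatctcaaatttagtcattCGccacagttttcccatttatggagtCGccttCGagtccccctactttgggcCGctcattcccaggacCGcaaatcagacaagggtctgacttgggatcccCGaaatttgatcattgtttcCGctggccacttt

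The depth implied by the RPKM of a single read was 2.09 to 22.9 M reads for ChIP libraries and 7.17 to 90.6 M for inputs. Within autosomal peaks 0.271 to 6.82 M reads per library were assigned to an allele. Over all autosomal peaks the paternal share of these reads was 47.4 to 51.2% in wild-type libraries and 44.2 to 48.9% in matDKO/CAST, which is the level that a locus without bias would show. The paternal share of H3K36me3 reads over Dnmt3b was 43.2 to 50.7% in matDKO/CAST epiblast and 47.4 to 52.2% in wild type, and in ExE 46.9 to 56.7% and 45.5 to 49.0%. Over Dnmt3a it was 49.0 to 63.2% and 32.4 to 63.6% in epiblast, and 40.0 to 50.0% and 34.7 to 50.8% in ExE. This does not test the deletion, since the sources used here give no coordinates of the deleted exons. In the H3K4me3 windows of the gene starts, 5 of 7 epiblast markers (among them Pou5f1 and Otx2) were lower in ExE and 4 of 7 ExE markers (Elf5, Bmp4, Cdx2 and Tfap2c) were higher, while Esrrb was lower. Of 7 markers of visceral endoderm, 5 were higher in ExE and Sox17 was lower. Their summed level was 48.6 to 79.0 RPKM in wild-type ExE against 30.3 to 52.6 RPKM in epiblast, and the part of visceral endoderm in the tissue differences below was not tested. The 4 markers of placental cone and giant cells summed to 15.1 to 21.2 RPKM in wild-type ExE and 12.1 to 22.1 in epiblast, from Ascl2 and Hand1, while Tpbpa and Prl3d1 reached at most 0.749 and 1.50 in any library. The 5 decidua markers summed to 15.6 to 20.4 RPKM in ExE and 30.9 to 36.4 in epiblast. Hand2 and Pgr, the 2 tested, were lower in ExE, and Prl8a2, Dcn and Col6a1 reached at most 0.188, 0.456 and 0.896. The part of these cells in the tissue differences was not tested.

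H3K4me3 at H19 sat on the maternal allele in every library. In epiblast 1 peak (142572000 to 142583000) covered H19, its start and the control region together. The paternal and maternal reads were 13 and 262 in the first B6/CAST library and 18 and 204 in the second. They were 4 and 136, and 4 and 40 in the reciprocal cross, and 10 and 171, and 8 and 55 in matDKO/CAST. The maternal reads were the greater in all 6 libraries, whichever strain the mother was. As a share of allelic reads the paternal allele had 6.42% ± 2.39 with the B6 mother, 5.97% ± 4.41 with the CAST mother and 9.11% ± 5.07 with the matDKO mother (SD, n = 2 each).

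In the log2 ratios below, the reads of each allele were scaled to that allele's total over the tested peaks. They are thus relative to the autosomal level and not to equal reads. For H3K4me3 at H19 in epiblast the log2 ratio of paternal to maternal reads was -3.83 ± 0.27 (SE) in B6/CAST (adjusted p = 3.2e-05, quasi-likelihood test of edgeR). Its reciprocal gave -4.42 ± 0.43 (8.6e-07), and matDKO/CAST gave -3.53 ± 0.30 (8.6e-25). Fitted over both wild-type crosses it was -4.14 ± 0.25 (2.3e-11). A peak was called imprinted when both reciprocal crosses passed an adjusted p of 0.05 with the same parent higher, and retained when matDKO/CAST passed it as well in that direction. The H19 peak was both. Of the 20328 testable H3K4me3 peaks in epiblast, the test passed 1.67% for B6/CAST, 1.56% for CAST/B6, 7.17% for matDKO/CAST and 0.197% for the joint fit, and 0.108% were imprinted. Between matDKO/CAST and B6/CAST the H19 bias differed by 0.32 ± 0.51 (adjusted p = 1.0), and 0.674% of peaks differed by that test. Leaving out 1 library moved this difference between -0.15, without the second matDKO/CAST library, and 1.21, without the first, and it passed in none of the 4 cases.

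In ExE the H19 peak (142574000 to 142583000) gave the same picture from more reads. The B6/CAST libraries held 48 paternal and 409 maternal reads, and 22 and 255. The CAST/B6 libraries held 10 and 246, and 5 and 218, and the matDKO/CAST libraries 37 and 223, and 15 and 189. All 6 libraries had paternal shares between 2.24 and 14.2%, well below the autosomal level. The log2 ratios were -3.19 ± 0.16 with a B6 mother and CAST father (adjusted p = 1.6e-14), -4.97 ± 0.24 in the reciprocal cross (3.8e-15) and -2.91 ± 0.25 in matDKO/CAST (6.8e-05). The peak was imprinted, as were 0.319% of 23211 peaks in ExE, and retained. Over these peaks 2.76% passed in matDKO/CAST and 0.711% in the joint fit, in which H19 stood at -4.10 ± 0.14 (adjusted p = 5.0e-30). The bias of matDKO/CAST differed from that of B6/CAST by 0.30 ± 0.35 (adjusted p = 1.0), against 0.892% of peaks that passed, and lay between -0.42 and 0.77 without the matDKO/CAST library labelled replicate 2 or 3. Between the wild-type crosses the paternal share was 9.22% ± 1.81 for B6/CAST and 3.07% ± 1.18 for CAST/B6 (SD, n = 2 each), a difference that was not tested.

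**Figure D1:**
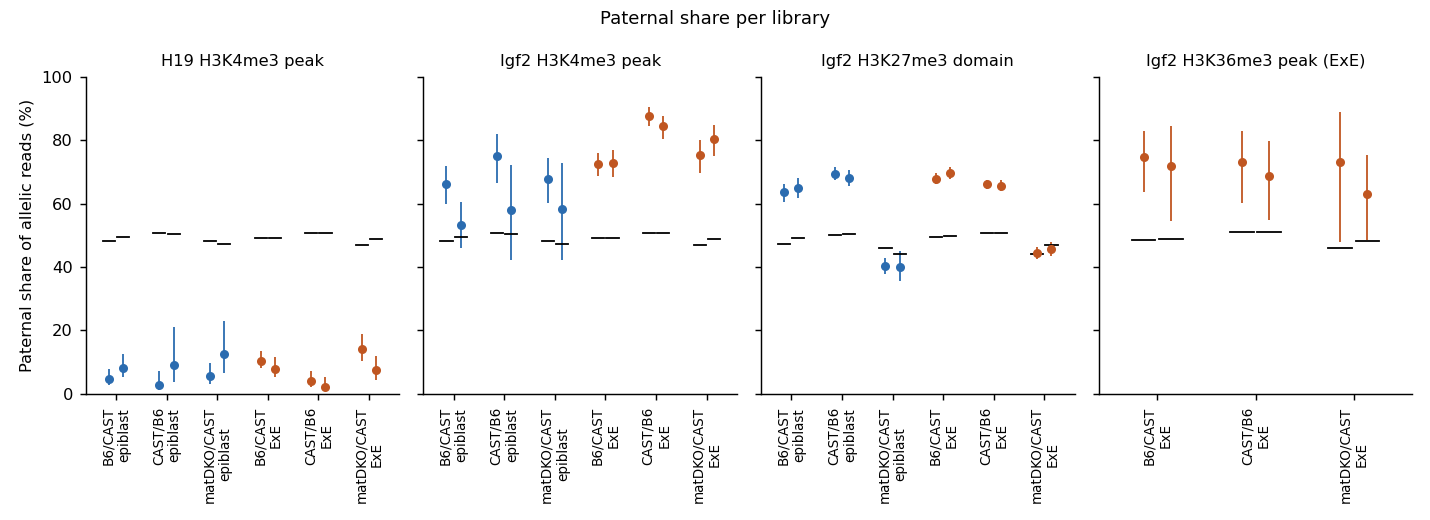
Paternal share of allelic reads (percent, y axis) at the H19 H3K4me3 peak, the Igf2 H3K4me3 peak, the Igf2 H3K27me3 domain and the Igf2 H3K36me3 peak in each library (points, epiblast in blue and ExE in orange, grouped by cross on the x axis). Vertical lines are 95% Wilson intervals of the share, which cover counting error only, and horizontal bars mark the autosomal paternal share of the same library. H19 lies below 15% in all 12 libraries, and the H3K27me3 domain lies above the autosomal bar in wild type and near or below it in matDKO/CAST.

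The paternal share at the H19 peak did not separate the tissues. It was 6.15% ± 3.76 in the 4 wild-type ExE libraries and 6.20% ± 2.91 in the 4 of epiblast (SD), a difference of -0.047 percentage points (exact two-sided permutation test, p = 0.943).

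At Igf2 the sign was the opposite, with H3K4me3 higher on the paternal allele. In ExE 1 peak (142653000 to 142672000) covered the 4 Igf2 starts and the antisense gene Igf2as. The paternal and maternal reads were 420 and 159, and 294 and 109 in B6/CAST. The CAST/B6 libraries had 391 and 54, and 323 and 59, and those of matDKO/CAST 207 and 68, and 202 and 49. The paternal share lay between 72.5 and 87.9% in all 6 libraries. The log2 ratio of the B6/CAST libraries was 1.46 ± 0.11 (adjusted p = 1.5e-10), that of CAST/B6 was 2.61 ± 0.14 (3.2e-14) and that of matDKO/CAST 1.94 ± 0.21 (0.00031), and the joint fit gave 2.02 ± 0.09 (2.8e-25). The peak was imprinted and retained, and matDKO/CAST differed from B6/CAST by 0.48 ± 0.24 (unadjusted p = 0.062, adjusted p = 1.0).

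The paternal lean of the Igf2 H3K4me3 peak was smaller in epiblast (142652500 to 142670000). Paternal and maternal reads were 158 and 81, and 96 and 84 for the B6/CAST libraries, 88 and 29, and 22 and 16 for CAST/B6, and 109 and 52, and 21 and 15 for matDKO/CAST. The second library of each cross lay nearer to equal shares than the first, at 53.3, 57.9 and 58.3% against 66.1, 75.2 and 67.7%. The log2 ratio for B6/CAST was 0.65 ± 0.23 (adjusted p = 0.28), for CAST/B6 1.14 ± 0.35 (0.12) and for matDKO/CAST 1.03 ± 0.25 (0.0014), with 0.89 ± 0.21 in the joint fit (0.14). Neither wild-type cross alone nor the joint fit passed the threshold. With the library as a block, which pairs the 2 alleles of the same sample, the ratio for B6/CAST was 0.66 (adjusted p = 0.00074), for CAST/B6 1.24 (0.031) and for both 0.94 (0.0035), so that both crosses passed. The blocked test also called more peaks in all, with 16.7% of the 20328 peaks for B6/CAST, 3.71% for CAST/B6 and 0.266% for both.

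Between the tissues, the paternal share of H3K4me3 at Igf2 was 79.5% ± 7.89 in the 4 wild-type ExE libraries and 63.1% ± 9.63 in the 4 epiblast libraries (SD). The difference did not pass an exact two-sided permutation test (p = 0.0857, 0.257 adjusted over 3 shares tested). With matDKO/CAST added, 6 libraries against 6, the shares differed by 15.8 percentage points (p = 0.00649, adjusted p = 0.0195, exact permutation test).

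H3K27me3 over Igf2 was the mark whose parental lean was not shared by matDKO/CAST and B6/CAST. In wild type the paternal allele held more of the mark, summed over the whole domain, and in matDKO/CAST it did not. In epiblast the domain (142614000 to 142774500) ran from the far end of Gm33148, a long non-coding RNA, across Igf2 and Ins2, the insulin gene. Paternal and maternal reads were 699 and 400, and 596 and 321 for the B6/CAST libraries, and 1440 and 631, and 806 and 376 for CAST/B6. For matDKO/CAST they were 627 and 930, and 165 and 246. All 4 wild-type libraries had paternal shares of 63.6 to 69.5%, and both matDKO/CAST libraries lay at 40.3 and 40.1%, below their own autosomal shares of 46.0 and 44.2%.

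Over the epiblast domain the log2 ratio for B6/CAST was 0.95 ± 0.21 (adjusted p = 0.016), for CAST/B6 1.14 ± 0.10 (8.8e-30) and for both together 1.04 ± 0.10 (2.1e-07). The domain was imprinted, as were 0.325% of 8924 testable H3K27me3 peaks. In matDKO/CAST the ratio was -0.29 ± 0.17 (adjusted p = 0.59) without the library as a block and -0.30 with it (0.012), so that the blocked test, which called 3.35% of these peaks in matDKO/CAST, called the maternal allele higher. The bias of matDKO/CAST differed from that of B6/CAST by -1.23 ± 0.26 (adjusted p = 0.030), a test that 0.179% of peaks passed. Of these peaks 1.97% passed in matDKO/CAST and 0.751% in the joint fit. The difference was -1.17 without the first matDKO/CAST library and -1.27 without the second, and it did not pass in either case (adjusted p = 1.0 and 0.82).

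In ExE a single domain (142580000 to 142774500) took in the control region as well. The B6/CAST libraries held 1930 paternal and 911 maternal reads, and 1542 and 668. Those of CAST/B6 held 2989 and 1526, and 1674 and 871, and those of matDKO/CAST 1243 and 1553, and 868 and 1034. The wild-type paternal shares were 65.8 to 69.8%. Those of matDKO/CAST were 44.5 and 45.6%, beside autosomal shares of 44.2 and 46.9%. The log2 ratio for B6/CAST was 1.22 ± 0.07 (adjusted p = 2.5e-22), for CAST/B6 0.94 ± 0.07 (8.3e-22), for both 1.08 ± 0.05 (1.5e-59) and for matDKO/CAST -0.01 ± 0.13 (0.98). The domain was imprinted and not retained. The matDKO/CAST bias differed from that of B6/CAST by -1.24 ± 0.15 (adjusted p = 3.3e-11), and the difference passed without either library of either cross. Of 18592 testable H3K27me3 peaks in ExE, 1.35% were imprinted, 7.27% passed in the joint fit, 2.1% passed in matDKO/CAST and 0.742% differed between the crosses.

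Each allele of the domain was also set against the allelic reads in autosomal peaks of its library. In ExE the paternal level, in reads per M allelic reads, was 455 for B6/CAST, 437 for CAST/B6 and 432 for matDKO/CAST (means of 2 libraries). The maternal level was 206 and 225 in the wild-type crosses and 528 in matDKO/CAST. In epiblast the paternal levels were 615, 695 and 584, and the maternal levels 341, 314 and 869. The paternal allele thus stood at like levels in all 3 crosses and the maternal allele was the one with the higher level in matDKO/CAST. The level of each allele was not tested, and the matDKO/CAST reads were split by a separate set of variants, so a shift in how reads were assigned and a change in the mark cannot be told apart from these levels.

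**Figure D2:**
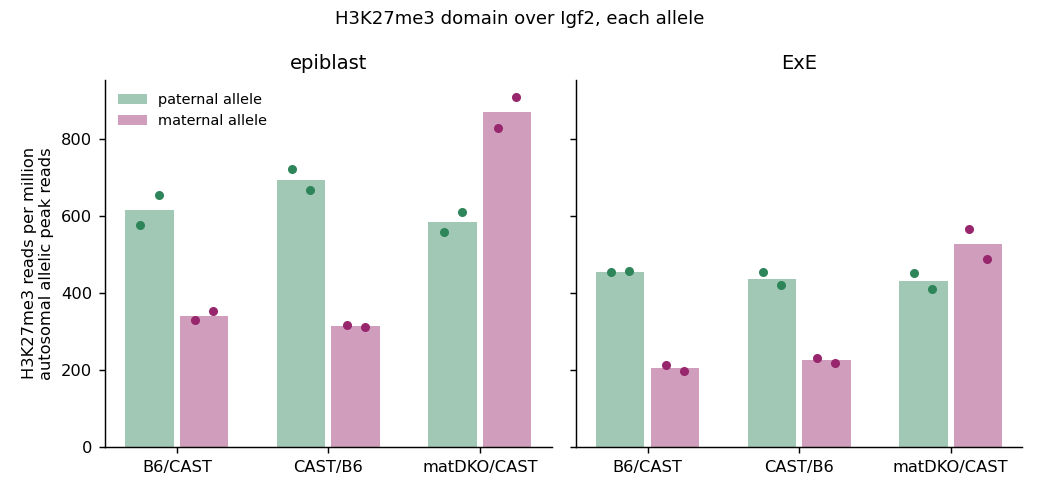
H3K27me3 reads of the Igf2 domain on each allele, per M allelic reads in autosomal peaks (y axis), by cross (x axis) in epiblast and ExE. Bars are means of 2 libraries and points the libraries, with the paternal allele in green and the maternal allele in magenta. The paternal bars are of similar height in all crosses, and the maternal bar of matDKO/CAST stands above its paternal bar in both tissues.

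The tissues did not separate by the share of the domain. It was 67.4% ± 1.82 paternal in the 4 wild-type ExE libraries and 66.6% ± 2.75 in the 4 epiblast libraries (SD, exact permutation test, p = 0.60).

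H3K36me3 over Igf2 was tested in ExE alone and leaned to the paternal allele. The peak (142650500 to 142672500) also covers Igf2as on the other strand, and ChIP reads do not tell the 2 genes apart. The B6/CAST libraries held 56 paternal and 19 maternal reads, and 23 and 9. Those of CAST/B6 held 41 and 15, and 35 and 16, and those of matDKO/CAST 11 and 4, and 29 and 17. The paternal share was 63.0 to 74.7% in all 6 libraries. The log2 ratio for B6/CAST was 1.56 ± 0.31 (adjusted p = 5.4e-05), for CAST/B6 1.22 ± 0.30 (0.0039) and for both 1.39 ± 0.22 (1.1e-07). The peak was imprinted, as were 0.251% of 7980 peaks, while 0.589% passed jointly. In matDKO/CAST the ratio of 1.07 ± 0.44 did not pass (adjusted p = 0.48, against 0.677% of peaks that did). Its difference from B6/CAST was -0.48 ± 0.57 (adjusted p = 1.0, against 0.363% of peaks), and without the matDKO/CAST library labelled replicate 3 it was 0.12. The Wald test of DESeq2 passed neither wild-type cross.

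Another 4 testable peaks passed in no cross. An H3K4me3 peak within Gm33148 (142610000 to 142612500 in epiblast and to 142613500 in ExE) had paternal shares between 37.5 and 58.3% in all 12 libraries, and its log2 ratios stayed within 0.39 of 0 (lowest adjusted p = 0.84). The epiblast H3K27me3 peak at H19 (142576500 to 142588500) had a joint ratio of 0.14 ± 0.19 (adjusted p = 0.98), with 0.57 ± 0.32 for B6/CAST and -0.32 ± 0.24 for CAST/B6. At the next H3K27me3 peak (142590500 to 142606000) the joint ratio was 0.06 ± 0.18 (adjusted p = 1.0). In epiblast a parental bias of H3K27me3 was thus called over the 160.5 kb domain that holds Igf2 and not at the H19 peak. The domain was read as a whole, so the bias is not placed at Igf2 itself. The H19 peak held 59 to 104 allelic reads per wild-type library and the domain 917 to 2071, so the test at H19 had fewer reads. In ExE the merged domain spans the control region and Igf2 together, so the table gives no separate value for each. In the peak lists of the single crosses it was 1 peak of 194.5 kb in CAST/B6 and 2 peaks of 86.5 and 105 kb in B6/CAST.

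A small H3K4me3 peak upstream of Igf2 (142714000 to 142716000), within an intron of the long Ins2 transcript, leaned to the CAST allele, as mother or as father, in 2 of the 3 crosses. Its CAST share in the 2 epiblast libraries of each cross was 58.5 and 48.9% (B6/CAST), 88.9 and 80.0% (CAST/B6), and 79.2 and 82.4% (matDKO/CAST). The log2 paternal to maternal ratio was -2.68 ± 0.52 in CAST/B6 (adjusted p = 0.0054) and 2.12 ± 0.47 in matDKO/CAST (0.00038), where CAST is the mother and the father. In B6/CAST it was 0.27 ± 0.45 (adjusted p = 0.95), so the peak met no rule for a strain effect, and DESeq2 passed neither of the other crosses.

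The 5 peaks with too few allelic reads to test were H3K4me3 at 142646500 in epiblast, at the start of Nctc1 (142556500) and at 142714000 in ExE, H3K36me3 at Igf2as (142668500) in epiblast and H3K36me3 at H19 (142575000) in ExE. They held between 0 and 24 allelic reads in each library. At the untested H3K36me3 peak of H19 the libraries held, for B6/CAST, 6 paternal reads beside 7 maternal and 2 beside 5, for CAST/B6 6 beside 5 and 3 beside 4, and for matDKO/CAST 3 beside 0 and 7 beside 6. In all, 6 of the 12 testable member peaks were imprinted and 3 of these, all H3K4me3, were retained. Over all testable peaks 0.0295% of H3K4me3 peaks in epiblast and 0.0819% in ExE were retained, with 0.0336% and 0.183% of H3K27me3 peaks and 0.0877% of H3K36me3 peaks in ExE.

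**Figure D3:**
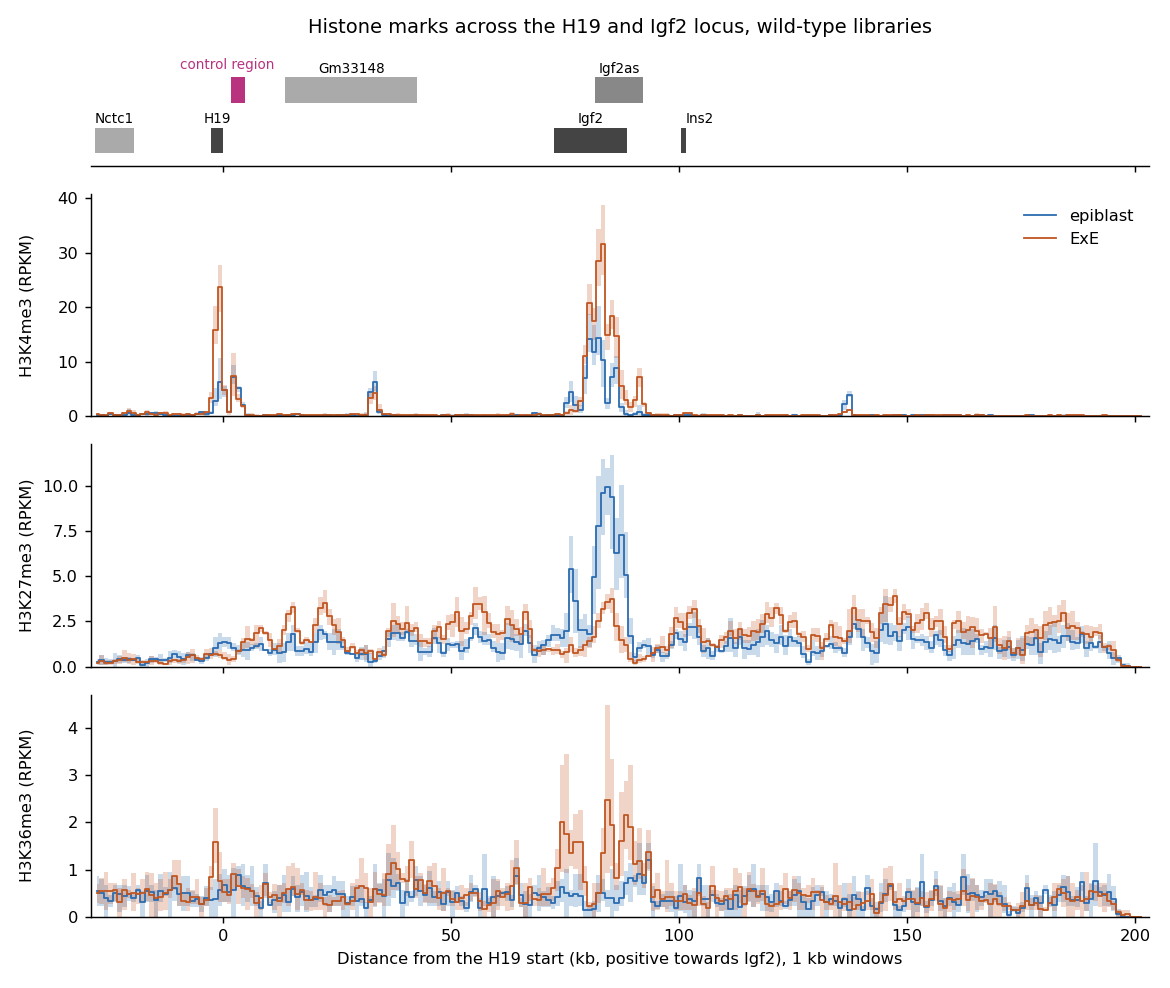
H3K4me3, H3K27me3 and H3K36me3 (RPKM, y axes) in 1 kb windows along the locus, by distance from the H19 start (kb, x axis, positive towards Igf2). Lines are means and bands the lowest to highest of the 4 wild-type libraries in epiblast (blue) and ExE (orange), with genes and the control region drawn above. H3K4me3 stands higher over H19 and Igf2 in ExE, and H3K27me3 over Igf2 stands higher in epiblast.

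Total signal, from all reads without regard to allele, leaned in opposite ways between the tissues for H3K27me3 over Igf2 and for H3K4me3 there. H3K4me3 over the 2 windows within the H19 gene was 16.3 to 24.0 RPKM in the 4 wild-type ExE libraries and 2.80 to 7.97 in epiblast, with means of 19.8 ± 3.53 and 4.55 ± 2.32 (SD). Over the control region it was 4.16 ± 1.37 in ExE and 4.84 ± 0.608 in epiblast, and the groups overlapped (exact permutation test, p = 0.40). Over the Igf2 gene H3K4me3 was 10.8 ± 1.29 in ExE and 5.57 ± 1.36 in epiblast, H3K36me3 was 1.34 ± 0.403 and 0.413 ± 0.0975, and H3K27me3 was 1.71 ± 0.280 and 5.02 ± 1.26. For each of these 3 marks at Igf2 the 4 libraries of one tissue lay apart from the 4 of the other. The inputs held 0.349 to 0.990 RPKM over H19 and 0.366 to 0.561 over Igf2, so that H3K36me3 over Igf2 in epiblast was at the level of the input. In the stretch between the control region and Igf2 H3K27me3 was instead the higher in ExE, with 1.87 ± 0.173 in ExE and 1.18 ± 0.156 in epiblast, beside 0.598 to 0.769 in the inputs. This stretch holds 7.74 CpG per kb, fewer than the 25 of the H19 windows, the 25.3 of the control region and the 29.2 of Igf2. The differences over the H19 gene, over Igf2 and in this stretch each gave p = 0.0286, the smallest that an exact two-sided test of 4 against 4 libraries allows, and 0.0551 after adjustment over the 27 combinations of feature and mark, so none passed 0.05.

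Window by window, limma was fitted to log2 of RPKM plus 0.5 over all windows with a mean of at least 1 RPKM, and its differences are on that log2 scale. For H3K4me3, 29 windows of the locus were tested, of which 17 were higher and 7 lower in ExE. Over all 83579 windows tested 20.1% were higher and 22.5% lower, and the median difference was 0.65 in the locus and -0.05 over all. Without the level filter 10 of 230 windows were higher and 3 lower. For H3K27me3, 71 of 173 windows were higher and 18 lower in ExE, against 31.5% higher and 10.5% lower of 135333, with medians of 0.48 in the locus and 0.37 over all. With edgeR on reads recovered from the RPKM steps these counts were 28 higher and 21 lower, and without the level filter, over 230 windows, 1 was higher and 7 lower. The balance of higher and lower H3K27me3 windows thus depends on the fit. Leaving out a single wild-type library gave 44 to 82 windows called of 89, with 44 without the first B6/CAST library of ExE, 45 and 57 without the first and second CAST/B6 libraries of ExE and 46 without the second CAST/B6 library of epiblast. For H3K36me3, 4 of 9 windows were higher and 0 lower, against 4.84% higher and 0.291% lower of 178902. The wild-type epiblast means of these 4 were 0.371 to 0.721 RPKM, under the minimum, so they entered through other libraries and their count gives no support for a direction. Without the level filter 1 of 230 windows was higher and 0 lower.

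The H3K4me3 window with the largest difference lay 91.4 kb from the H19 start, upstream of Igf2 within Igf2as, and holds the start of the overlapping gene Gm49394, with 5.31 to 8.92 RPKM in wild-type ExE and 0.228 to 2.18 in epiblast (2.80 ± 0.25, adjusted p = 1.5e-26). Its mean in epiblast was under the level minimum, at 0.783 RPKM in wild type and 0.748 in matDKO/CAST, so it entered the test through ExE and its difference is a description. It passed without the level filter as well (adjusted p = 0.030). The highest wild-type epiblast value was that of the first B6/CAST library, which also had the highest at the ExE marker Elf5 (4.47 RPKM, others 0.835 to 2.39). Next came a window 84.4 kb from the H19 start (2.46 ± 0.22) and the 2 windows of the H19 gene body (2.35 ± 0.21 and 1.96 ± 0.20). In the window that holds the H19 start itself H3K4me3 was 4.82 ± 0.995 RPKM in ExE and 4.82 ± 0.950 in epiblast (SD), a difference of 0.00 ± 0.22 (adjusted p = 1.0). The start, at 142578143, lies near the edge of this window (142578001 to 142579000). The adjoining window on the gene side, the one that differed by 1.96, held 23.8 RPKM in ExE and 6.23 in epiblast (wild-type means). The level at the start thus cannot be read from the window of the start alone. The windows of the control region gave -0.07 ± 0.21, -0.63 ± 0.23 and -0.13 ± 0.26, of which the middle one passed (adjusted p = 0.018).

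The 5 H3K27me3 windows with the largest differences all lay over Igf2, 76.4 to 88.4 kb from the H19 start, and all were lower in ExE, by 1.45 to 1.98 on the log2 scale. In the one 77.4 kb away the wild-type ExE mean was 0.762 RPKM, under the level minimum. That window entered the test through other libraries, and its difference is a description. At the window 87.4 kb away the wild-type epiblast libraries held 4.88, 4.95, 9.17 and 10.0 RPKM and the ExE libraries 1.24, 0.758, 1.53 and 2.24 (-1.98 ± 0.22, adjusted p = 1.6e-09). For H3K36me3 the called windows were 2 over Igf2 (1.63 ± 0.34 and 1.48 ± 0.34), the window of Igf2 start 1 (1.10 ± 0.27) and 1 over the H19 gene body (1.32 ± 0.30). Leaving out a single library gave 0 to 3 of these calls, with 0 without the first B6/CAST or the second CAST/B6 library of ExE, and a pseudocount of 0.1 gave 1.

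The 4 Igf2 starts differed in level and in the size of the tissue difference. The window of start 2, which has the sequence shown above, held the most H3K4me3 in ExE, with 30.8, 26.0, 30.9 and 38.8 RPKM in wild-type ExE and 14.04, 9.82, 12.1 and 5.38 in epiblast (1.63 ± 0.20, adjusted p = 2.0e-14). The window of start 1, whose upstream sequence holds a single CpG, was at 2.10 to 4.88 RPKM in ExE and 0.0759 to 1.17 in epiblast (1.89 ± 0.27, adjusted p = 1.4e-10). It too entered the test through ExE, with epiblast means of 0.471 RPKM in wild type and 0.748 in matDKO/CAST, and it passed without the level filter (adjusted p = 0.014). Starts 3 and 4 differed less, by 0.55 ± 0.20 (adjusted p = 0.015) and 0.65 ± 0.21 (0.0053). H3K27me3 was higher in epiblast at starts 1 and 2 (by 1.70 and 1.45 on the log2 scale) and at start 4 (0.58 ± 0.23, adjusted p = 0.036), and start 3 missed the threshold (-0.24 ± 0.22, ExE minus epiblast, adjusted p = 0.37).

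**Figure D4:**
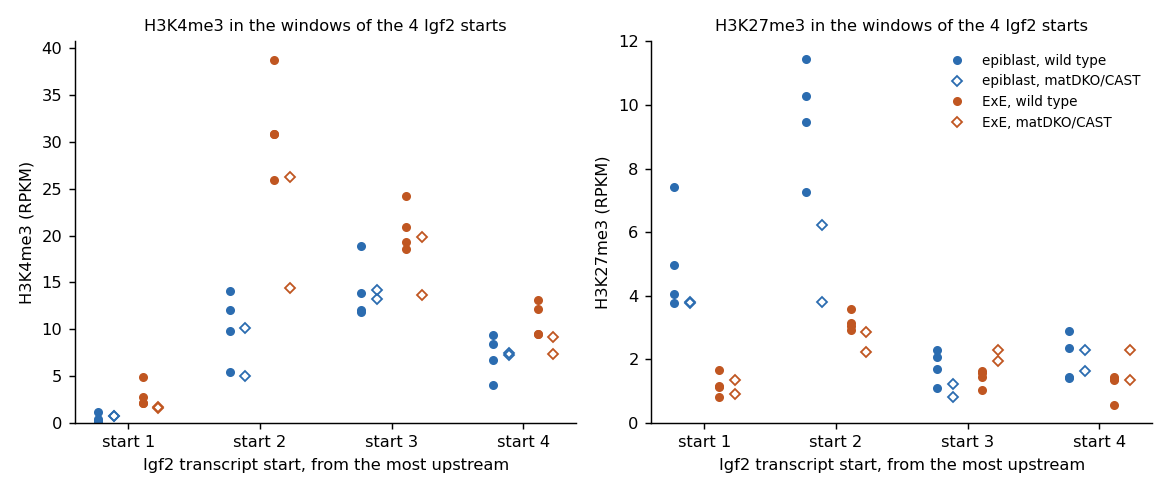
H3K4me3 (left) and H3K27me3 (right) in RPKM (y axes) in the 1 kb window of each Igf2 start, numbered from the most upstream (x axis). Points are libraries, wild type filled and matDKO/CAST open, epiblast in blue and ExE in orange. At start 2 the ExE libraries hold the higher H3K4me3 and the epiblast libraries the higher H3K27me3.

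Between matDKO/CAST and wild type few windows of the locus passed for total signal. For H3K4me3 0 of 29 windows passed in epiblast, where 5.05% of all windows did, and 0 of 29 in ExE, where 0.682% did. Over all windows 14296 and 7027 had an unadjusted p under 0.05, and edgeR called 0 and 2 of the locus, the 2 being lower in matDKO/CAST ExE, one of them the window of Igf2 start 2 (-0.77, adjusted p = 0.0057, against -0.67 and 0.26 by limma). Over the Igf2 starts H3K4me3 was 9.28 and 14.18 RPKM in matDKO/CAST ExE and 14.20 to 19.57 in wild type, with both libraries below all 4 of wild type (exact permutation test, p = 0.133, the smallest possible for 2 against 4). The H19 gene held 21.4 ± 5.45 RPKM in matDKO/CAST ExE and 19.8 ± 3.53 in wild type (SD, n = 2 and 4). For H3K36me3 0 of 9 windows passed in ExE (0.00838% of all, 12852 unadjusted, 0 by edgeR). In epiblast 1 did (0.377% of all), the H19 gene body, at 1.91 and 2.14 RPKM in matDKO/CAST and 0 to 0.793 in wild type (1.62 ± 0.36, adjusted p = 0.039), which did not pass by edgeR, nor without the first B6/CAST, either CAST/B6 or the matDKO/CAST library labelled replicate 2. Its wild-type epiblast mean of 0.371 RPKM was under the level minimum, so it entered the test through matDKO/CAST and ExE and its difference is a description. With the replicate number as a block it was 1.27 (adjusted p = 0.088), and the call was instead 1 lower window, between Igf2as and Ins2 (-1.48, adjusted p = 0.045). H3K4me3 at Elf5, the ExE marker, was also higher in matDKO/CAST epiblast (3.49 and 3.99 RPKM against 0.835 to 4.47, 0.90 ± 0.26, adjusted p = 0.017), the only one of the 7 ExE markers called in this contrast, with Eomes at -0.23 ± 0.25 and Ets2 at -0.08 ± 0.26. The 7 summed to 129.8 and 168 RPKM in matDKO/CAST epiblast and 126 to 179 in wild type, so the groups overlapped, and the part of ExE cells was not tested.

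For H3K27me3 in epiblast 3 of 173 windows passed, 1 higher and 2 lower in matDKO/CAST (5.35% of all, 0.579% higher and 4.77% lower). Those over Igf2, at 82.4 and 83.4 kb, were lower in matDKO/CAST (-0.96 ± 0.28, adjusted p = 0.030, and -0.89 ± 0.25, 0.028), and the third, at 181.4 kb, was higher (0.93 ± 0.29, 0.042). In the same contrast H3K27me3 at the gene starts was also lower at both visceral endoderm markers tested (Gata4 and Sox17), at the epiblast marker Utf1, at the ExE marker Tfap2c and at Igfbp3, an IGF-binding protein, and the part of other cells was not tested. With edgeR on recovered reads the window at 181.4 kb and 3 others were called higher, while the 2 over Igf2 kept their sign (-0.56, adjusted p = 0.19, and -0.69, adjusted p = 0.072) and did not pass. Leaving out 1 library gave 0 to 20 windows, with 20 without the first matDKO/CAST library and 0 without its second, the second B6/CAST or the second CAST/B6 library. In ExE 0 passed (0.034% of all, 13756 unadjusted), and edgeR called 15, all higher in matDKO/CAST. Between the control region and Igf2 both matDKO/CAST libraries lay above all 4 wild-type ones in both tissues, at 1.42 and 1.63 RPKM against 0.962 to 1.32 in epiblast and 2.10 and 2.78 against 1.64 to 2.02 in ExE. The exact permutation test gave p = 0.133 in each tissue, the smallest that 2 against 4 libraries allows.

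Genes that act with Igf2 were read at the windows of their starts, for H3K4me3. Of the ligands, only Igf2 was tested, and Igf1, Ins1 and Ins2 lay under the filter in both tissues. None of the 3 receptors (Igf1r, Igf2r and Insr) differed between the tissues, with Igf2r, which clears Igf2, at 20.9 ± 4.75 RPKM in ExE and 21.2 ± 5.85 in epiblast. Of 7 binding proteins, which hold the ligands outside the cell, Igfbp2 (-1.11 ± 0.20), Igfbp6 (-0.998 ± 0.207) and Igfbp5 (-0.71 ± 0.20) were lower in ExE and Igfbp1 (0.71 ± 0.28) was higher, beside 22.5% lower and 20.1% higher over all H3K4me3 windows. The 2 adaptors Irs1 and Irs2 did not pass. Of the proteins that read the control region, 0 of 5 tested (Ctcf, Rad21, Smc3, Zfp57 and Trim28) passed, and Ctcfl lay under the filter. Igf2r, itself imprinted through oocyte methylation, was lower in matDKO/CAST ExE (10.2 ± 3.89 against 20.9 ± 4.75 RPKM, -1.03 ± 0.24, adjusted p = 0.0068).

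The other loci known to be imprinted through sperm methylation were set beside it. At Meg3, a non-coding RNA of the Dlk1 locus, H3K4me3 was maternal like that of H19, with joint log2 ratios of -4.86 ± 0.25 and -5.76 ± 0.34 at 2 epiblast peaks and -4.13 ± 0.11 in ExE, all retained. H3K27me3 over Dlk1 was higher on the maternal allele (-1.54 ± 0.11 in epiblast, -1.74 ± 0.05 in ExE), the opposite parent from Igf2, and it was retained in matDKO/CAST, where the difference from B6/CAST was 0.24 ± 0.28 and 0.20 ± 0.15 (adjusted p = 1.0 and 0.86). Upstream of Rasgrf1 the H3K27me3 domain was maternal as well (-2.67 ± 0.13 in epiblast, -0.96 ± 0.06 in ExE) and retained, with differences of 0.36 ± 0.33 and -0.05 ± 0.17. Over Rasgrf1 itself a weaker ExE domain (-0.39 ± 0.08) was imprinted and not retained, though its difference from B6/CAST was 0.17 ± 0.20 (adjusted p = 0.94). Of the testable H3K27me3 peaks within 20 kb of the 3 loci, the 2 over Igf2 were those in which matDKO/CAST and B6/CAST differed. Whether they differ in this from the peaks of the other loci was not tested. Over all 18592 testable H3K27me3 peaks in ExE, 138 differed by this test, 131 of them with a lower ratio in matDKO/CAST. A difference between these crosses was thus not confined to Igf2. The paper places most imprinted H3K27me3 of ExE near the genes Kcnq1 and Igf2r, and reports that it depends on maternal methylation. Those regions were not set beside Igf2 here. H3K36me3 over Meg3 was maternal and retained (-2.36 ± 0.07 in epiblast, -2.61 ± 0.05 in ExE), and in ExE its bias also differed between the crosses (0.61 ± 0.15, adjusted p = 0.049), being smaller with the matDKO mother.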

How the data were processed

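The H3K4me3, H3K27me3 and H3K36me3 libraries and inputs were sequenced, trimmed with Trim Galore (0.4.4 in the submitters' processing notes, where the study's methods name another version beside its RNA-seq) and aligned by the authors to N-masked GRCm38 with Bowtie2 2.3.2, and SNPsplit assigned reads to an allele. For matDKO/CAST the authors left out variants shared by 129 and CAST, realigned unassigned reads to a 129/CAST genome and added the 129 reads to the maternal allele. The 6 deposited tables hold the authors' read counts per allele over peaks that chromstaR called in the wild-type crosses, merged within a tissue. The deposited RPKM values per 1 kb window came from all reads of each of the 51 samples. All deposited peak lists carry a score of 0, and they were used here only for the extent of peaks. Peak coordinates are given as deposited. For 6 of the 17 member peaks the name column differs from the start and end columns, which were used.

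From the counts, peaks with at least 20 reads in an allele column were tested over the whole table with the quasi-likelihood test of edgeR 4.0.16 (TMM scaling) for paternal against maternal reads, in each cross, in both wild-type crosses together and for the difference of matDKO/CAST from B6/CAST, with Benjamini-Hochberg adjustment and a threshold of 0.05. Windows were tested with limma 3.58.1 on log2(RPKM + 0.5) where the mean was at least 1 RPKM. Shares and feature levels were compared by exact permutation tests over libraries (SciPy 1.17.1). Fold changes on the log2(RPKM + 0.5) scale understate those of low windows. All RPKM values (100%) came out as whole reads, within a tolerance that grew with the count, and edgeR on these reads was run as an alternative.

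The named windows were the 5 with the largest change past the threshold in each mark and contrast, beside those of the Igf2 starts, the H19 start and the control region. The member peaks, gene lists and tests were chosen with earlier results of these data known. In simulated tables with 200 changed peaks, the H3K4me3 tables held 23211 (ExE) and 20328 (epiblast) peaks. The joint test found 97.5% of the changed peaks in each. The test of a single cross, on which the imprinted calls rest, found 84.5% and 81.5%. The window test found 96.5% over 83579 windows. False calls numbered 10 and 9 in the joint test, 11 and 4 in the single-cross test and 15 in the window test. Recovery was not broken down by the size of the bias, so these rates do not give the power at any member peak. The 2 allele columns of a library come from 1 sample, so the fit with the library as a block pairs them by design. Across groups, correlations between libraries of the same number ran from -0.199 to 0.232, and the numbers were not taken to pair the groups. DESeq2 1.42.0, other scalings, filters, pseudocounts, the block and leaving out each library were the alternatives. Wilson intervals of shares cover counting error only.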

Additional observations from a re-analysis of the deposited data

Results flagged for a closer look

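The parental bias of H3K27me3 over Igf2 differed between the crosses in both tissues. In epiblast the log2 ratio of paternal to maternal reads in matDKO/CAST minus that in B6/CAST was -1.23 (adjusted p = 0.030, interaction term in edgeR), and in ExE it was -1.24 (adjusted p = 3.3e-11). The epiblast difference did not pass without the first (adjusted p = 1.0) or the second (0.82) matDKO/CAST library, while that in ExE passed without either library of either cross. In both tissues the 2 matDKO/CAST libraries lay below all 4 wild-type libraries in paternal share. The mothers of the 2 crosses differ in background and in the variants used to split reads as well as in genotype, and these cannot be told apart here.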

How the results depend on the processing

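The maternal H3K4me3 of H19, the paternal H3K4me3 of Igf2 in ExE and the wild-type H3K27me3 bias kept their direction under every alternative run. For H3K4me3 at Igf2 in epiblast the joint ratio passed with the library as a replicate block (0.94) and without the read filter (0.89). The block also passed each wild-type cross there and matDKO/CAST at the epiblast H3K27me3 domain, and changed no other allelic call. With 3 crosses the tissue difference in paternal share was 15.8 points at Igf2 and 0.53 at H19.

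Counts of locus windows moved with the processing. Without the level filter, which tests many more windows, 13 H3K4me3, 8 H3K27me3 (1 higher, 7 lower) and 1 H3K36me3 windows differed between tissues, and for matDKO/CAST 0 H3K27me3 and 0 H3K36me3 in epiblast and 1 H3K36me3 in ExE. With edgeR 49 H3K27me3 windows differed between tissues, and for matDKO/CAST 2 H3K4me3 and 15 H3K27me3 in ExE and 0 H3K36me3 in epiblast. A pseudocount of 0.1 gave 1 H3K36me3 window between tissues, and 1 H3K27me3 and 0 H3K36me3 for matDKO/CAST in epiblast. The block by replicate number gave 7 H3K36me3 windows between tissues and 9 H3K27me3 for matDKO/CAST in epiblast, and 1 other H3K36me3 window there, lower, in place of the H19 body. The causes were not tested. After subtraction of input the tissue difference was -0.036 RPKM for H3K36me3 in the downstream flank and -0.0064 for H3K4me3 in the upstream flank. By DESeq2 the ExE H3K4me3 peak at 142610000 in B6/CAST stood at 0.0052.

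Leaving out 1 library gave 0 to 1 H3K4me3, 0 to 20 H3K27me3 and 0 to 2 H3K36me3 windows for matDKO/CAST in epiblast, and 44 to 82 H3K27me3 and 0 to 3 H3K36me3 windows between tissues. The matDKO/CAST difference in H3K27me3 bias at Igf2 in epiblast ran from -1.27 to -1.17, and without either matDKO/CAST library 1 member peak differed, the one in ExE. Other matDKO/CAST differences ran from -0.15 to 1.21 (H19 H3K4me3, epiblast), -0.42 to 0.77 (H19 H3K4me3, ExE), -0.023 to 0.81 (Igf2 H3K4me3, epiblast) and -0.69 to 0.12 (Igf2 H3K36me3). At 142610000 they ran from -0.24 to 0.36 in epiblast and -0.094 to 0.52 in ExE, and at 142590500 from -0.44 to 0.018. Ratios within a cross ran from -0.26 to 0.35 at 142610000 in ExE (B6/CAST), -0.047 to 0.57 at 142714000 (B6/CAST) and -0.57 to 0.066 for H3K27me3 at H19 (CAST/B6). At 142590500 they ran from -0.27 to 0.19 (B6/CAST), -0.32 to 0.38 (CAST/B6) and -0.15 to 0.19 (both crosses). In matDKO/CAST the ExE H3K27me3 domain ran from -0.067 to 0.033.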
